A study of Mus musculus and Homo sapiens with 8 samples.

Results

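The mitochondrial ribosomal protein genes were followed in 2 cell systems of an RNA-seq series. They were taken by symbol, as Mrpl or Mrps followed by a number in the mouse count table and MRPL or MRPS followed by a number and at most 1 letter in the human count table, with a mean count of at least 10 in their own table. In mouse, 81 of 25668 symbols matched and 77 were kept. The 4 left out, Mrpl23-ps1, Mrpl48-ps, Mrps36-ps1 and Mrps36-ps2, are pseudogenes by their symbols, and the highest of them, Mrpl23-ps1, had a mean count of 6.33, while the lowest gene kept, Mrps34, had a mean count of 195. In human, 77 of 25611 symbols matched and 76 were kept: MRPS24, with a mean count of 6.0, fell out, and MRPL38, with a mean count of 19.0, was the lowest one kept.

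The mouse libraries were 3 of osteoclasts and 3 of macrophages, all grown from bone marrow of 6-week-old wild-type C57BL/6 mice. Osteoclasts, the multinucleated cells that resorb bone, were given RANKL at 100 ng/ml, the signal for their formation, beside M-CSF at 50 ng/ml, and macrophages received M-CSF at 50 ng/ml and no RANKL. The human libraries were 1 of MDA-MB-231 cells, a triple-negative breast cancer line, given 40 µM olaparib, an inhibitor of PARP enzymes, for 3 days, and 1 of the same line given DMSO for the same time. Nothing in the labels says whether the 3 libraries of a mouse group came from separate animals or cultures, so the p-values speak only of how far these libraries differ, and that spread may be technical. In such bulk samples, fewer cells of a type and less RNA per cell cannot be told apart.

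The mitochondrial ribosome translates the few messages that mitochondrial DNA encodes, all of them core subunits of the respiratory chain and ATP synthase. Its RNAs are encoded in mitochondrial DNA, while every one of its proteins is encoded in the nucleus, made in the cytoplasm and imported. Some of these proteins have counterparts in bacterial ribosomes and others occur only in mitochondria, and the small subunit reads the message while the large subunit joins the amino acids. Osteoclasts are known for their many mitochondria.

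The mouse libraries held 16743849 to 22587509 counts, of which the mitochondrial ribosomal proteins took 0.200% to 0.214% in osteoclasts and 0.191% to 0.196% in macrophages. The olaparib library held 6878212 counts and the DMSO library 7472981, with shares of 0.529% in the olaparib library and 0.395% in the DMSO library. All 8 osteoclast markers rose in osteoclasts, their summed level being 11550 to 12140 CPM (counts scaled to a fixed library size after TMM, which sets libraries to a common level of most genes) in osteoclasts and 45.1 to 49.5 CPM in macrophages. Of the 7 macrophage markers 3 rose and 4 fell, with a sum of 40960 to 43930 CPM in osteoclasts and 21030 to 22000 CPM in macrophages, and the 3 lymphoid markers summed to 0.855 to 1.20 CPM in osteoclasts and 9.83 to 12.9 CPM in macrophages. Osteoclast library 2 stood apart, with Malat1, a nuclear non-coding RNA, at 4152 CPM and at 1103 to 1463 CPM in the other 5 mouse libraries. The 9 stromal and osteoblast-lineage markers, of which 1 rose and 3 fell, summed to 20.1 to 28.7 CPM in osteoclasts, to 201.9 CPM in macrophage library 1 and to 8.70 to 13.6 CPM in the other 2 macrophage libraries. The MDA-MB-231 libraries carried VIM at 6099 counts with olaparib and 8387 with DMSO, and CD44 at 2419 with olaparib and 2892 with DMSO. ESR1, the estrogen receptor that this line lacks, was at 0 in both. Of the other receptor genes looked up for this line, PGR had 0 counts with olaparib and 7 with DMSO. ERBB2 was present, with 883 counts with olaparib and 710 with DMSO.

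Most mitochondrial ribosomal protein genes were modestly higher in osteoclasts than in macrophages on the TMM scale. All 77 passed the low count filter. By edgeR's quasi-likelihood test, with p adjusted after Benjamini and Hochberg over 13247 genes tested and a call below 0.05, 57 rose, 0 fell and 20 were not called. At an unadjusted p under 0.05 none was lower, and DESeq2 also called 0 lower, against 19.6% of all genes. Over all genes tested, 32.3% rose and 31.4% fell. The median log2 fold change of the 77 was 0.30, against -0.0040 over all genes tested, and single values ran to 1.12 at the top and to -0.12 at the bottom. For 58 genes every osteoclast library lay above every macrophage library, which held for 34.2% of all genes, and for 1 gene, Mrpl28, every osteoclast library lay below, which held for 33.9% of all genes. Without osteoclast library 2 the count called higher was 59 (76.6%, against 32.3% of all genes). Without macrophage library 1 it was 54 (70.1%, against 31.4% of all genes).

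The count depended on the scaling. Set to equal total counts, without TMM, the same test gave 18 higher (23.4% of the members, against 19.8% of all genes) and 6 lower (7.79%, against 48.7% of all genes), with a member median of 0.083 against -0.22 over all genes. On the counts as deposited it gave 8 higher, which at 10.4% is below the 13.6% of all genes, and 0 lower, against 28.6% of all genes, with a member median of 0.12 against -0.19. That setting leaves the different depths of the libraries uncorrected, although the values behave as unscaled counts. The sign was below 0 at equal totals for 8 genes called higher on the TMM scale, Mrpl3, Mrpl11, Mrpl23, Mrpl27, Mrpl48, Mrpl49, Mrps7 and Mrps15. The values that follow are on the TMM scale.

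**Figure D1:**
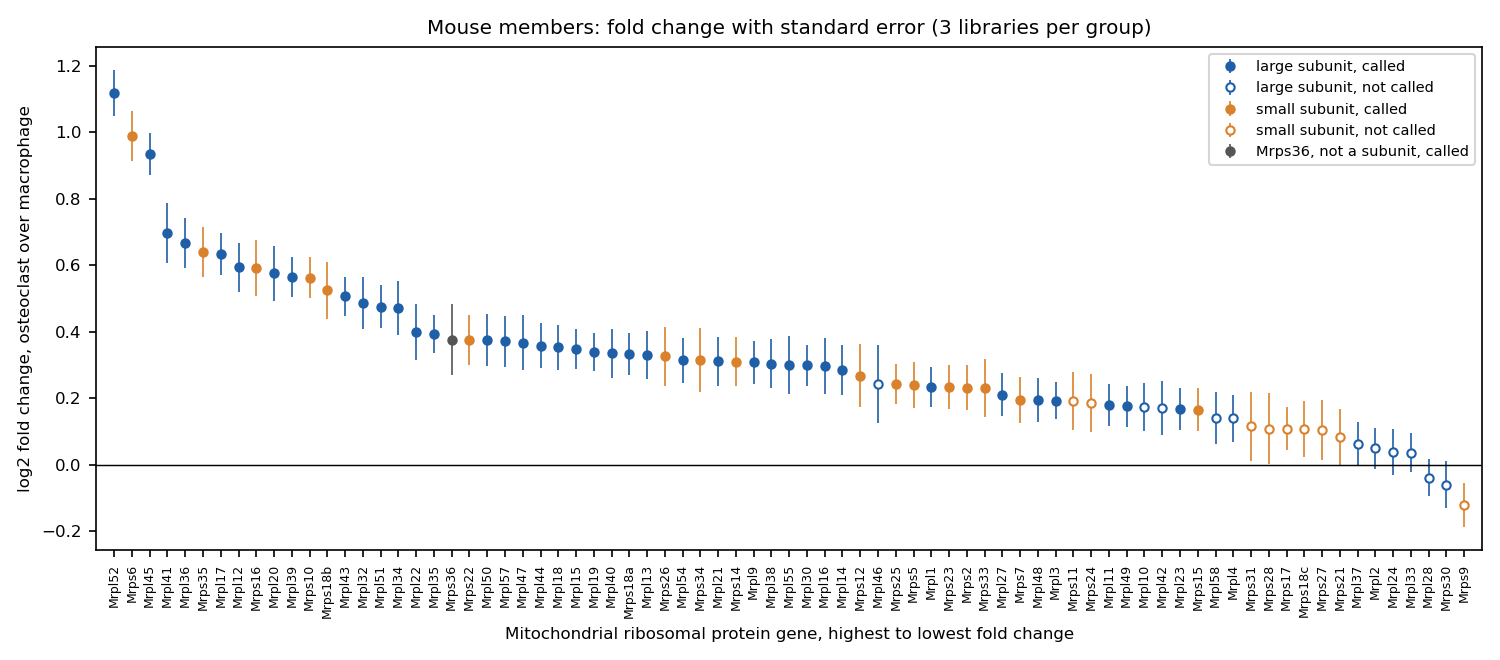
Log2 fold change of osteoclasts over macrophages for the 77 mouse genes in order, with bars of 1 standard error, coloured by ribosomal subunit. Filled points passed the test and open points did not; 3 genes, Mrpl52, Mrps6 and Mrpl45, stand above the rest, and 3 genes lie below 0.

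Summed over the 77 genes, the level was 2243.3, 2156.1 and 2318.1 CPM in the osteoclast libraries and 1770.3, 1811.4 and 1829.4 CPM in the macrophage libraries. Every osteoclast library was above every macrophage library, and osteoclast library 2 was the lowest of its group. The sum averaged 2239.2 ± 81.1 CPM in osteoclasts and 1803.7 ± 30.3 CPM in macrophages (SD, n = 3 each). The size of the difference was small for most of the 77 genes: 14 reached 0.5 log2, 9 reached 1.5-fold and 1 reached 2-fold. The shares of all genes tested that reached these sizes were not computed. The genes called spanned log2 fold changes of 0.17 to 1.12 with a median of 0.34, while those not called spanned -0.12 to 0.24. The standard error had a median of 0.072 on the log2 scale.

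Mrpl52, a large-subunit protein found only in mitochondrial ribosomes, had the highest fold change. Its level was 36.9, 33.1 and 38.6 CPM in osteoclasts and 17.5, 16.3 and 16.4 CPM in macrophages, so that the lowest osteoclast library was well above the highest macrophage library. The log2 fold change was 1.12 (SE 0.070, edgeR adjusted p = 1.17e-08). Mrpl45, the large-subunit protein at the exit of the peptide tunnel that helps to hold the ribosome at the inner membrane, had 64.1, 58.1 and 58.5 CPM in osteoclasts and 30.3, 32.4 and 31.7 CPM in macrophages. Its groups did not overlap, and the log2 fold change was 0.94 (SE 0.062, edgeR adjusted p = 2.22e-08). At 60.2 ± 3.39 CPM in osteoclasts it had the highest count level of the 77 genes there, though not per length, since its exons span 2431 bases.

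Mrps6, a small-subunit protein with a bacterial counterpart, had 20.6, 19.4 and 20.02 CPM in osteoclasts and 10.0, 9.88 and 10.4 CPM in macrophages. The groups lay far apart beside their spread, with a log2 fold change of 0.99 (SE 0.075, edgeR adjusted p = 8.37e-08). Mrps6 shares 159 bases of exon, 18.8% of its own, on the same strand with Slc5a3, an inositol transporter gene, and 305 bases with Gm49711. Slc5a3 had 71.8 CPM in osteoclasts and 38.1 CPM in macrophages, a log2 fold change of 0.91 (edgeR adjusted p = 3.53e-08). The sources used here do not say how shared exons were counted, and the part of Slc5a3 reads in the Mrps6 value was not tested.

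The next genes in order were of both subunits. Mrpl41, a mitochondria-specific protein of the large subunit, had 23.1, 20.1 and 18.9 CPM in osteoclasts and 12.2, 12.3 and 13.7 CPM in macrophages, with a log2 fold change of 0.70 (SE 0.090, edgeR adjusted p = 1.52e-05). Mrpl36, a small zinc-binding protein of the large subunit, had 28.5, 27.9 and 31.1 CPM in osteoclasts and 16.9, 18.1 and 20.1 CPM in macrophages, with a log2 fold change of 0.67. In neither gene did the groups overlap. Mrpl36 shares 30 exon bases on the opposite strand with Ndufs6, a complex I subunit gene whose own log2 fold change was 0.51. Mrps35, a mitochondria-specific protein of the small subunit, had 19.7, 21.2 and 21.6 CPM in osteoclasts and 13.1, 14.3 and 12.7 CPM in macrophages, with a log2 fold change of 0.64. Its groups were also clear of each other.

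Mrpl17, a neighbour of the peptide tunnel exit, averaged 44.2 ± 2.63 CPM in osteoclasts and 28.5 ± 0.684 CPM in macrophages (SD, n = 3 each; log2 fold change 0.63). Mrpl12, the stalk protein to which translation factors bind, averaged 35.4 ± 3.26 CPM in osteoclasts and 23.5 ± 1.31 CPM in macrophages (log2 fold change 0.59). Both differences were larger than the spread between libraries. Mrps16 had a log2 fold change of 0.59 and Mrpl20, one of the proteins that bind large-subunit RNA, 0.58. Mrpl20 varied more among osteoclasts than the others, at 50.6, 42.6 and 54.6 CPM, the low value being library 2, and stood at 34.2, 32.6 and 32.6 CPM in macrophages.

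**Figure D2:**
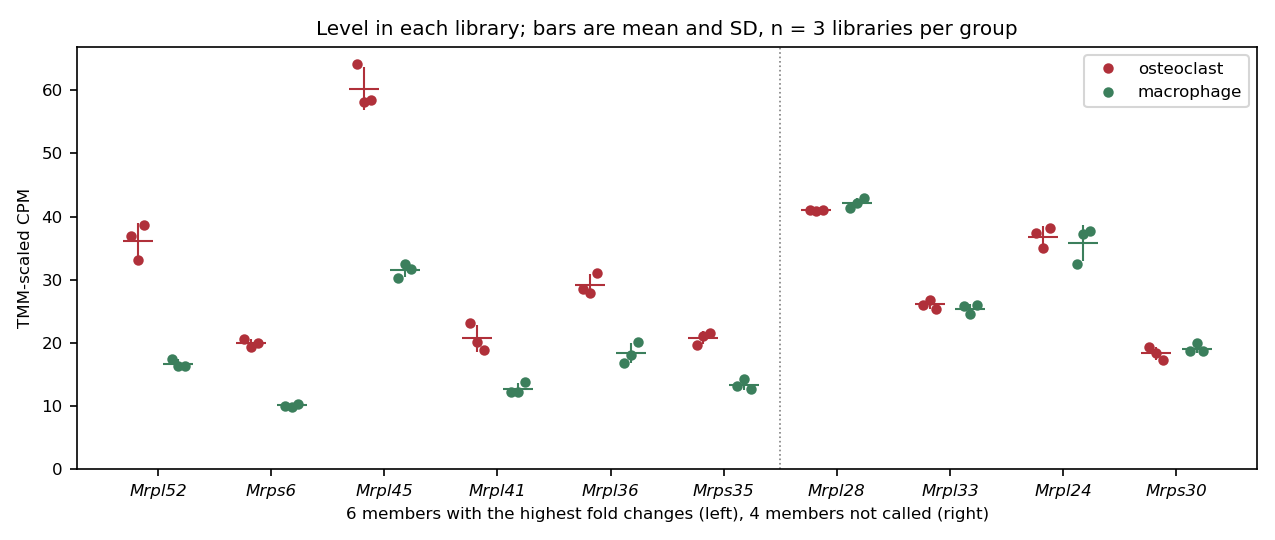
TMM-scaled CPM in each of the 6 mouse libraries for the 6 genes with the highest fold changes (left of the dotted line) and 4 genes that were not called (right), with osteoclasts left of macrophages within each gene. Points are libraries and bars are mean and SD (n = 3); the groups are separate in all 6 genes on the left, with Mrpl52 at 36.2 CPM in osteoclasts and 16.7 CPM in macrophages.

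At the other end, several core proteins with bacterial counterparts showed no call. Mrpl28 had 41.1, 40.9 and 41.0 CPM in osteoclasts and 41.3, 42.1 and 42.9 CPM in macrophages, with a log2 fold change of -0.038 (SE 0.055, edgeR adjusted p = 0.561). Its groups did not overlap, yet the gap was under 1 CPM. Mrpl33 had 26.1, 26.7 and 25.4 CPM in osteoclasts and 25.8, 24.5 and 25.9 CPM in macrophages, which overlap (log2 fold change 0.036, edgeR adjusted p = 0.609). Mrpl24, which lies near the tunnel exit, and Mrpl2, which lies near the peptidyl transferase centre, had log2 fold changes of 0.039 and 0.050 (SE 0.070 and 0.062). For Mrpl24 the sign turned to -0.021 without macrophage library 1. Mrps30, which carries a small-subunit name but sits in the large subunit, had 19.4, 18.4 and 17.3 CPM in osteoclasts and 18.6, 19.9 and 18.7 CPM in macrophages, again with overlap (log2 fold change -0.059, edgeR adjusted p = 0.486). The lowest value of all, chosen here after it was seen, was that of Mrps9, at -0.12 (edgeR adjusted p = 0.123).

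Genes of both subunits and of both evolutionary origins rose. For the counts in this paragraph, 32.3% of all genes tested rose and 31.4% fell. Of the 50 large-subunit genes 39 rose, with a median log2 fold change of 0.31, and of the 26 small-subunit genes 17 rose, with a median of 0.23. The summed level of the large subunit was 1572.9 ± 58.8 CPM in osteoclasts and 1248.7 ± 24.4 CPM in macrophages, and that of the small subunit 650.8 ± 24.98 CPM in osteoclasts and 543.1 ± 5.60 CPM in macrophages (SD, n = 3 each). Of 47 genes with a bacterial counterpart 34 rose (median 0.29), and of 29 mitochondria-specific genes 22 rose (median 0.31). Mrps36, which despite its name is a subunit of the α-ketoglutarate dehydrogenase complex, rose as well, at 15.4 ± 1.55 CPM in osteoclasts and 11.9 ± 1.52 CPM in macrophages (log2 fold change 0.38, edgeR adjusted p = 0.00761).

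Per kilobase of exon the levels ran over a wide range, with 3.995 to 73.7 CPM per kilobase in osteoclasts and 3.10 to 63.4 in macrophages. The 3 highest on this scale in osteoclasts were all short: Mrpl52 (73.7 in osteoclasts and 34.1 in macrophages), Mrps21 (67.2 in osteoclasts and 63.4 in macrophages) and Mrpl42 (58.1 in osteoclasts and 51.6 in macrophages). Mrps21 and Mrpl42 were not called, so the order at the top differed between the cells: Mrpl52 was first in osteoclasts and number 10 in macrophages, where Mrps21, Mrpl33 (53.2) and Mrpl42 led. Across libraries Mrps21 spanned 31.1 to 36.3 CPM in osteoclasts and 28.5 to 35.0 CPM in macrophages.

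Promoter windows in RefSeq's table for GRCm38.p6, covering 250 bases before to 50 after the listed start, could be matched by symbol for 68 of the 77 genes. The windows shown next are those of 3 strongly raised genes whose window holds an NRF1 or ETS core, of Mrps6, which holds none of the motifs searched, and of Mrps30, which was not called and holds a YY1 core; these were chosen after the motifs were seen. NRF1 and the ETS factor GABP are known activators of genes for mitochondrial proteins. Capitals mark matches on either strand to the NRF1 core GCGCANGCG, the ETS core CCGGAAG, the YY1 core AANATGGCG or the E-box CACGTG. The windows lie at chr14:54426659-54426958 (plus strand) for Mrpl52, chr11:97315466-97315765 (plus) for Mrpl45, chr7:105811038-105811337 (minus) for Mrpl17, chr16:92058086-92058385 (plus) for Mrps6 and chr13:118387203-118387502 (minus) for Mrps30, each written in the direction of its gene.
Mrpl52: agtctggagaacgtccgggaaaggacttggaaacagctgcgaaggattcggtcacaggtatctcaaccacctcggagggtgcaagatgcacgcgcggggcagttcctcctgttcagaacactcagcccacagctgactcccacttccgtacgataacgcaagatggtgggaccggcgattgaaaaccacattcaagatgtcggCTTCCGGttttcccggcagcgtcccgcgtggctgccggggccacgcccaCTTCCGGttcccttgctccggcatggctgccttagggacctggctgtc
Mrpl45: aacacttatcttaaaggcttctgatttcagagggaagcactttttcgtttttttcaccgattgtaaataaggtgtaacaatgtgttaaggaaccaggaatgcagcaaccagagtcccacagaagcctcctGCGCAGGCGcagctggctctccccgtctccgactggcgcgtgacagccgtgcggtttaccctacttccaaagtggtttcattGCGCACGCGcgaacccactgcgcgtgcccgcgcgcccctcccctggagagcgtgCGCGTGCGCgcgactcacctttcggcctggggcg
Mrpl17: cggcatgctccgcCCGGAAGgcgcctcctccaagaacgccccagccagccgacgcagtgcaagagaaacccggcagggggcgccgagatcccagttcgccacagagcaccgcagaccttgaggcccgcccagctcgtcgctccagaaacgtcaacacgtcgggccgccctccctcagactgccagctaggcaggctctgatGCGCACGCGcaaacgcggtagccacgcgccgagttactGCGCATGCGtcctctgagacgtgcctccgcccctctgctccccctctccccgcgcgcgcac
Mrps6: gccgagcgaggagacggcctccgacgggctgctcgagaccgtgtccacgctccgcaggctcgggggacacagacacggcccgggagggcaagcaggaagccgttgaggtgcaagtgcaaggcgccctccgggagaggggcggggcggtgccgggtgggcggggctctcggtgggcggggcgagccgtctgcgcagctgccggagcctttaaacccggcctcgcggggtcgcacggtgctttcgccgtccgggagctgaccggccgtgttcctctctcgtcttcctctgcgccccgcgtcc
Mrps30: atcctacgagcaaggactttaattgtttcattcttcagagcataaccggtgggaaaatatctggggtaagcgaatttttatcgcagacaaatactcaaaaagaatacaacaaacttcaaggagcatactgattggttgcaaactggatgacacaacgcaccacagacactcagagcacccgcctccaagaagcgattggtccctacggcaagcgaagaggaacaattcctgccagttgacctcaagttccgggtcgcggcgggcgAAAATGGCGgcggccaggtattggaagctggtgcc

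Mrpl52 held 2 ETS cores and Mrpl45 held 3 NRF1 cores. Mrpl17 held 2 NRF1 cores and 1 ETS core. Over the 68 windows the ETS core was found in 35.3%, against 19.0% of the 9799 windows of genes tested and 9.1% of the windows of all 27025 genes in the table. The NRF1 core was found in 23.5% of the 68, against 14.1% of genes tested and 6.5% of all genes. The YY1 core was in 16.2% of the 68, against 5.5% of genes tested and 2.5% of all genes, and the E-box in 7.4%, against 10.3% and 7.2%. Among the 50 matched genes that rose, the NRF1 core was in 13 windows, the ETS core in 19 and the YY1 core in 4. Among the 18 not called, the NRF1 core was in 3 windows, the ETS core in 5 and the YY1 core in 7. These shares describe letters in a window and are no measure of binding, and their differences were not tested.

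The other genes of mitochondrial gene expression were mixed. All 5 ribosomal proteins whose symbols do not begin with Mrp rose: Dap3 (log2 fold change 0.42), a GTP-binding protein of the small subunit, Ptcd3 (0.27), Aurkaip1 (0.21), Chchd1 (0.37) and Gadd45gip1 (0.60). Of 28 assembly factors 4 rose and 5 fell, with a median of 0.0024. Over all genes tested 32.3% rose and 31.4% fell, so the assembly factors were called less often than that in either direction. Rbfa, which helps small-subunit RNA to mature, fell by 0.60 on the log2 scale, with 33.0 ± 2.45 CPM in osteoclasts and 49.9 ± 4.43 CPM in macrophages (edgeR adjusted p = 1.53e-05). Ndufab1, the mitochondrial acyl carrier protein, which takes part in ribosome assembly and in complex I, rose by 0.55.

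Of 17 translation factors 4 rose and 3 fell, with a median log2 fold change of -0.0081. Both shares are below the 32.3% that rose and the 31.4% that fell over all genes tested. The risers included both main elongation factors: Gfm1, the translocase, had 72.6 ± 3.82 CPM in osteoclasts and 48.9 ± 0.793 CPM in macrophages (log2 fold change 0.57), and Tufm, which delivers aminoacyl-tRNA, had 74.0 ± 3.11 CPM in osteoclasts and 51.5 ± 1.503 CPM in macrophages (0.52). The 3 that fell were Gatc (-0.50) and Qrsl1 (-0.31), subunits of the enzyme that makes glutaminyl-tRNA, and Guf1 (-0.26), a GTPase that binds the ribosome. Gatb, another subunit of that enzyme, stood at -0.031 (edgeR adjusted p = 0.748). Of 17 mitochondrial tRNA synthetases 3 rose and 4 fell (median 0.053), again below the shares of all genes. One of the 3, Lars2, had a mean of 1324 with an SD of 2014 CPM in osteoclasts, so its libraries differed from each other by more than the mean.

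Of 19 genes for mitochondrial DNA replication, transcription and RNA handling 8 rose and 3 fell, with a median of 0.13. For this list and those below, 32.3% of all genes tested rose and 31.4% fell. Hsd17b10, a subunit of mitochondrial RNase P, rose by 0.75 and Trmt10c, its partner subunit, by 0.43, while Polrmt, the mitochondrial RNA polymerase, fell by 0.23 and Polg, the DNA polymerase, fell by 0.47. Messages encoded by mitochondrial DNA rose for 11 of the 12 tested, with a median of 0.60; mt-Co1, a core subunit of complex IV, had 12710 ± 543 CPM in osteoclasts and 6690 ± 279 CPM in macrophages. Nuclear subunits of the respiratory chain rose for 70 of 76 (median 0.53) and cytoplasmic ribosomal proteins for 77 of 82 (median 0.37), with 0 lower in each. The mitochondrial ribosomal proteins, at 0.30, thus had a lower median than these 3 lists and a higher one than the factors that assemble or serve the ribosome.

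**Figure D3:**
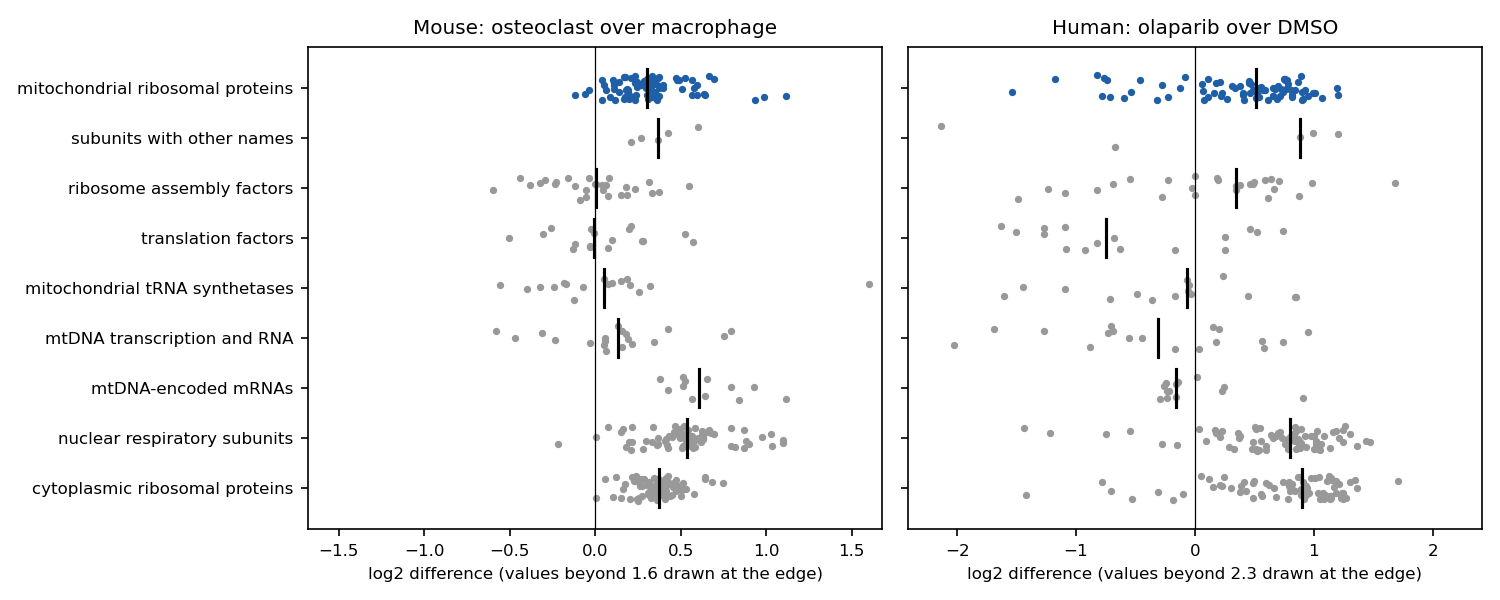
Log2 differences of single genes (points) and list medians (black bars) for the mitochondrial ribosomal proteins (blue) and 8 related gene lists (grey), in osteoclasts over macrophages (left) and in olaparib over DMSO (right, 1 library each). In mouse the ribosomal proteins have a median of 0.30 and the assembly factors 0.0024; in human the translation factors have a median of -0.75 and the ribosomal proteins 0.52.

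In MDA-MB-231 cells, most mitochondrial ribosomal protein genes were higher in the olaparib library than in the DMSO library. Each group had 1 library, so there was no replicate check and no test, and a gene was counted by the size of its log2 ratio of TMM-scaled counts with a pseudocount of 1. Of the 76 genes 61 lay above 0 and 15 below. At least 0.5 log2 higher were 39 genes, with 29.0% of the 13285 genes ranked, and at least 0.5 log2 lower were 9, with 34.1% of the genes ranked. At 1 log2, 4 were higher (10.3% of all) and 2 lower (20.3% of all). The median ratio was 0.52 and that of all genes ranked -0.0076. The 95% exact conditional binomial interval, which covers counting error only, lay above 0 for 51 genes, below 0 for 12 and across 0 for 13. These intervals were not computed over all genes ranked, so whether such counts are unusual for the whole set of genes is not known.

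The top of the order held core proteins of both subunits. MRPL14, of the interface between the subunits, had 1896 counts with olaparib and 932 with DMSO, a log2 ratio of 1.20 (95% interval 1.09 to 1.32). MRPS12, a protein of the decoding centre, had 767 counts with olaparib and 379 with DMSO, also 1.20 (1.02 to 1.38). The intervals of the pair overlap over most of their length. MRPL41 had 1589 counts with olaparib and 860 with DMSO (1.07), and MRPS21 294 with olaparib and 165 with DMSO (1.01). The other 6 of the top 10, MRPL27, MRPL28, MRPS18C, MRPL33, MRPL12 and MRPL54, had log2 ratios of 0.90 to 0.99.

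At the bottom stood MRPS31, a mitochondria-specific small-subunit protein, with 30 counts with olaparib and 101 with DMSO, a log2 ratio of -1.54 (95% interval -2.21 to -0.97). MRPS35 had 129 counts with olaparib and 332 with DMSO (-1.18, interval -1.49 to -0.88), and MRPS22, also specific to the mitochondrial small subunit, 184 with olaparib and 370 with DMSO (-0.82, interval -1.09 to -0.57). None of these intervals reaches 0. Among genes with a mean count of at least 50, MRPL39 (-0.78), MRPL48 (-0.77), MRPL35 (-0.71), MRPS9 (-0.60), MRPS10 (-0.54), MRPS27 (-0.46) and MRPL19 (-0.32) followed. MRPS17, under that mean, had 26 counts with olaparib and 50 with DMSO (-0.74, interval -1.505 to -0.051). MRPS10 was among the most abundant members by count, with 758 counts with olaparib and 1249 with DMSO.

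For all counts that follow, 29.0% of all genes ranked were at least 0.5 log2 higher and 34.1% lower. Of 50 large-subunit genes 26 were at least 0.5 log2 higher and 3 lower (median 0.52). Of 25 small-subunit genes 12 were higher and 6 lower (median 0.46). Of 46 with a bacterial counterpart 24 were higher and 4 lower, and of 29 mitochondria-specific ones 14 were higher and 5 lower. Of the 5 ribosomal proteins with other names 3 were higher and 2 lower (median 0.89). GADD45GIP1 had a log2 ratio of 1.20, AURKAIP1 of 0.99 and CHCHD1 of 0.89, whereas PTCD3, a small-subunit protein of the pentatricopeptide repeat kind, had 140 counts with olaparib and 700 with DMSO (-2.13), and DAP3 had 619 with olaparib and 1118 with DMSO (-0.67). Translation factors had 2 higher and 10 lower of 16 (median -0.75), assembly factors 8 higher and 6 lower of 27 (median 0.35), and tRNA synthetases 2 higher and 4 lower of 15 (median -0.064). Genes for mitochondrial DNA replication, transcription and RNA handling had 4 higher and 8 lower of 18 (median -0.31). Nuclear respiratory chain subunits had 59 higher and 4 lower of 78 (median 0.80), and cytoplasmic ribosomal proteins 60 higher and 4 lower of 80 (median 0.90). Of the 13 messages of mitochondrial DNA, 1 was higher and 0 were lower, with a median of -0.16.

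The human ratios moved with base composition and length over the whole table. No human annotation was used here, so the GC content and exon length of the mouse gene of the same symbol stood in, which 88.1% of genes with a mean count of at least 50 had. Over these 9073 genes the rank correlation of the ratio was 0.62 with GC content and -0.50 with length, as a description across genes of the same 2 libraries. Over the members it was 0.39 with GC content and -0.39 with length. An additive smooth trend with the pair took up 52.4% of the variance of the ratios. With the trend subtracted, a step chosen after the data were seen, the members' median was 0.13, 23 were at least 0.5 log2 higher (20.1% of all genes) and 16 lower (20.5% of all genes). The part of base composition and length in the ratios cannot be told apart from that of the drug with 1 library each. The members are short, with a median exon length of 1404 bases in mouse against 3439 over these genes, and their median GC content was 49.6%, against 49.8%.

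**Figure D4:**
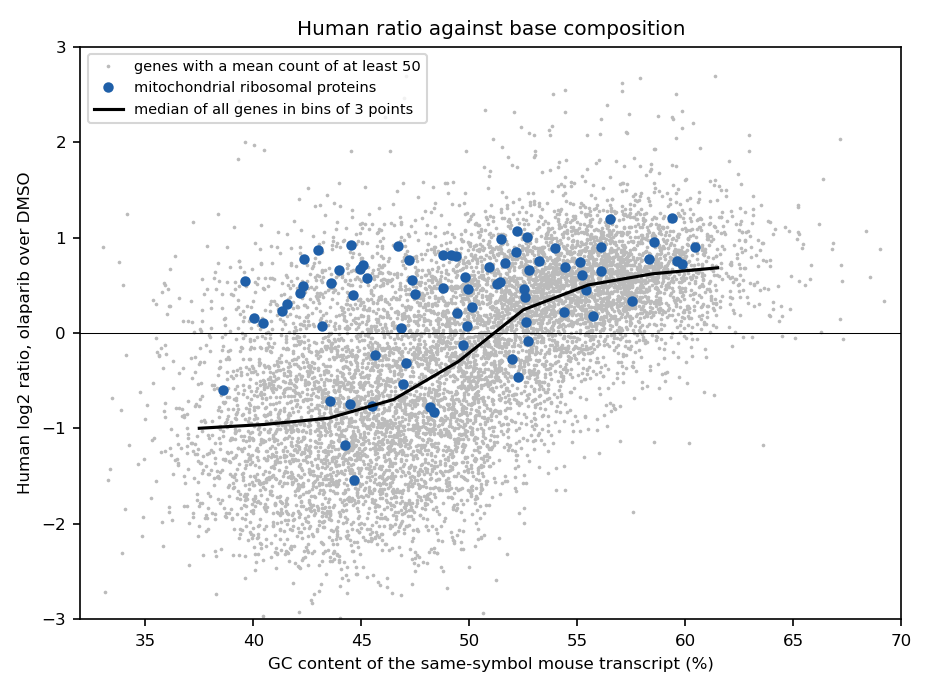
Human log2 ratio of olaparib over DMSO against the GC content of the same-symbol mouse transcript, for all genes with a mean count of at least 50 (grey; ratios beyond 3 either way are not drawn) and the mitochondrial ribosomal proteins (blue). The black line joins the medians of all genes in bins of GC content; the members with low GC content lie on both sides of it, and the line climbs with GC content (rank correlation over all genes 0.62).

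The same trend could be asked of the mouse fold changes. Over the genes tested with a length, the rank correlation of the log2 fold change with exon length was -0.18, and over the members 0.030. With GC content it was 0.066 over all genes and -0.074 over the members. After a per-library trend with length was taken out, 42 of the 77 rose and 3 fell (Mrpl28, Mrpl33 and Mrps9), with a median of 0.19; of all genes in that fit 34.5% rose and 29.8% fell, with a median of 0.015.

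The values of the 2 systems were set side by side. Over the 76 genes with the same symbol in both tables, the log2 fold change of osteoclasts over macrophages and the log2 ratio of olaparib over DMSO had a Pearson r of 0.0080 and a Spearman rho of -0.054, given as a description across genes. At least 0.5 log2 higher in both were 6 genes: Mrps6 (0.99 in mouse and 0.74 in human), Mrpl41 (0.70 and 1.07), Mrpl36 (0.67 and 0.69), Mrpl17 (0.63 and 0.87), Mrpl12 (0.59 and 0.90) and Mrpl43 (0.51 and 0.54). At least 0.5 log2 higher in osteoclasts but lower with olaparib were 3: Mrps35 (0.64 and -1.18), Mrpl39 (0.56 and -0.78) and Mrps10 (0.56 and -0.54). These sets depended on the scaling: at equal totals 1 of the 6, Mrps6, and 0 of the 3 stayed at 0.5 log2 or more in mouse. With the GC and length trend subtracted, only MRPL17 of the 6 was at 0.5 log2 or more in human. Its value moved from 0.87 to 2.14, with a mouse exon length of 7605 bases, the longest of the members, standing in. Of the 3, MRPL39 and MRPS10 stayed at least 0.5 log2 lower.

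Mrps10, a small-subunit protein with a bacterial counterpart, had 35.0, 34.6 and 36.7 CPM in osteoclasts and 22.8, 23.8 and 25.4 CPM in macrophages, with no overlap. Mrpl39, a mitochondria-specific large-subunit protein, had 34.1, 32.9 and 36.4 CPM in osteoclasts and 23.0, 23.6 and 23.3 CPM in macrophages, likewise apart. The leading mouse genes Mrpl52 and Mrpl45 had human log2 ratios of 0.38 and 0.078, and the leading human genes MRPL14 and MRPS12 had mouse log2 fold changes of 0.29 and 0.27. Mrpl28 and Mrpl33, not called in mouse, had human log2 ratios of 0.96 and 0.91. Of the 57 genes that rose in osteoclasts, 30 were at least 0.5 log2 higher with olaparib and 6 were lower. The 30 are 52.6% of the mouse list and 76.9% of the 39 human genes. Over all 76 genes, 39 were that much higher with olaparib and 57 rose in osteoclasts. Both overlap shares thus lie near the shares over all the members. Of the 19 not called in mouse that have a human value, 9 were higher and 3 lower.

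**Figure D5:**
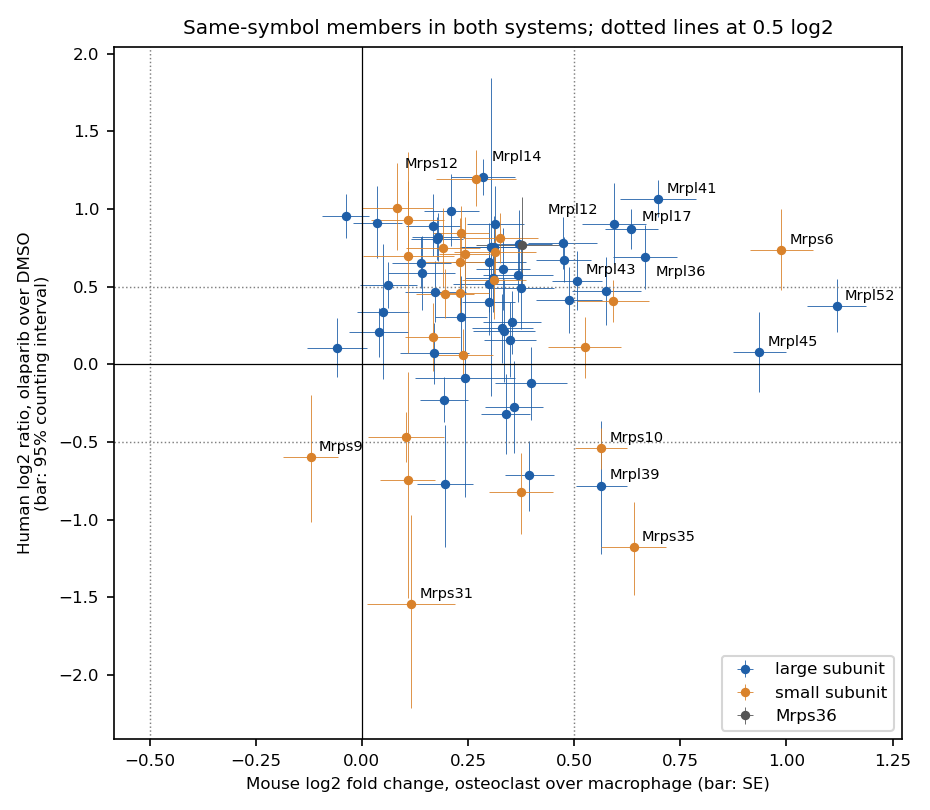
Log2 fold change of osteoclasts over macrophages (horizontal, bars of 1 standard error) against log2 ratio of olaparib over DMSO (vertical, bars of the 95% counting interval) for the 76 genes with the same symbol. Nearly all points lie right of 0 on the mouse axis but spread on both sides of 0 on the human axis, with Mrps35 at 0.64 in mouse and -1.18 in human.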

How the data were processed

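The authors deposited 1 table of whole-number counts per gene symbol for each species; STAR 2.6.0c, featureCounts 1.6.2, mm10 and hg19 are listed, with no role or order, per the submitters' processing notes, and no strand setting is stated. Although the file names call the values normalized, they behave as unscaled counts: they are whole numbers that fill 1 to 60 evenly (chi-square per degree of freedom 0.815 to 1.36 as deposited), whereas lowering or raising them by 3% gave 1.97 to 4.45. They were therefore tested as counts. In mouse, 4 rows with symbols damaged into dates that occurred more than once were kept as separate genes. Damaged symbols that occurred only once were not counted.

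Mouse genes were tested in edgeR 4.0.16 (R 4.3.3; filterByExpr, TMM, quasi-likelihood, two-sided, Benjamini-Hochberg over all genes tested, call at 0.05), on the group alone; DESeq2 1.42.0 and limma 3.58.1 were alternatives. The human pair has 1 library per group and got log2 ratios of TMM-scaled counts plus 1, with exact conditional binomial 95% intervals for counting error only. The code was also run on simulated data in which few genes changed. That run cannot speak to the choice of scaling in these data, where many genes changed. Exon lengths are unions over GENCODE vM21 transcripts, and promoters are RefSeq's, searched on both strands, the first listed window per gene. The members and all lists were chosen with earlier results of these data known. Genes named are the 10 highest and 10 lowest called in mouse (none was called lower), the 5 with the highest p, the 3 highest per length, the 10 highest and lowest human ratios at a mean count of at least 50, and those past 0.5 log2 in both systems; others, companion genes included, were named after their values were seen.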

Additional observations from a re-analysis of the deposited data

How the results depend on the processing

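For the mouse genes, 18 (23.4%; all genes 19.8%) were called higher and 6 lower at equal totals, 8 (10.4%; all genes 13.6%) higher on the deposited scale, and 42 (54.5%; all genes 34.5%) higher and 3 lower after the length trend. The members' median log2 fold change was 0.083 at equal totals, 0.12 on the deposited scale, 0.24 in limma with a pseudocount of 5, where the added 5 shrinks low genes, and 0.19 after the length trend. DESeq2 called 46 higher (59.7%, against 21.6% of all genes), RLE size factors 58 (75.3%, against 32.8%) and no filter 55 (71.4%, against 17.6%). Called lower were 0 in each, against 19.6%, 31% and 16.9% of all genes. Leaving out 1 library at a time gave 52 to 59 higher, 0 to 1 lower (Mrps9, without osteoclast library 1) and medians of 0.27 to 0.33. Of all genes, those fits called 29.3% to 32.3% higher and 27.7% to 30.7% lower. With the replicate number as a block, 58 (75.3%, against 32% of all genes) were called higher and the median was 0.30. Each gene's mean over its group was subtracted from its log2 levels. What remained correlated at 0.051, 0.063 and 0.139 between same-numbered libraries of the 2 groups. By this measure every library correlated best with its own number, a weak hint from the data and not from the design. The remainders of a group sum to 0 for each gene, and not all 3 correlations exceed 0.1. The replicate block is therefore not read as a paired analysis. The sign turned for 24 of the 77 at equal totals, 18 on the deposited scale and 11 after the length trend, of which 8, 4 and 3 were called higher on the TMM scale. Among the genes named by rule, Mrpl24, Mrpl33, Mrpl2, Mrps21 and Mrpl42 turned, and stood at -0.18, -0.18, -0.17, -0.13 and -0.047 at equal totals, at -0.15, -0.15, -0.14, -0.10 and -0.012 on the deposited scale, and at -0.058, -0.21, -0.11, -0.16 and -0.052 after the length trend. Mrpl24 ranged over -0.021 to 0.082 as single libraries were left out. For the human pair, subtracting the GC and length trend gave 23 higher, 16 lower and a median of 0.13, and turned the sign of 25 of the 76, among them, of those named by rule, MRPL14 (-0.26), MRPS21 (-0.14), MRPL28 (-0.18), MRPL54 (-0.62), MRPL48 (0.099), MRPL35 (0.046) and MRPL19 (0.48). Equal totals gave 34 higher and 10 lower (all genes 26.0% and 35.8%), the deposited scale 27 and 10 (20.8% and 39.6%). In both species the deposited scale leaves library depth uncorrected. The cause of these shifts was not tested. The human alternative with human transcript lengths was not run. With 1 library a group, the human ratios have no error beyond counting, and members with few counts, such as MRPL38, have wide intervals.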

Other observations

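Of 9 regulators known to drive genes for mitochondrial proteins, 3 rose and 3 fell in osteoclasts. These shares are near the 32.3% that rose and the 31.4% that fell over all genes tested. Ppargc1b, a coactivator of mitochondrial biogenesis, had 16.4 ± 3.66 CPM in osteoclasts and 2.19 ± 0.0554 CPM in macrophages (log2 fold change 2.90, edgeR adjusted p = 4.21e-09). Esrra, the nuclear receptor that it activates, rose by 0.70 and Myc by 1.11. The GABP subunit genes Gabpa (-0.25), Gabpb1 (-0.28) and Gabpb2 (-0.29) fell, while Nrf1 stood at 0.024 and Yy1 at 0.094 without a call. In the olaparib library against the DMSO library, ESRRA had a log2 ratio of 0.57, GABPA -1.22, GABPB1 -1.24 and PPARGC1B -1.07, the last from 28 counts with olaparib and 68 with DMSO.

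Exons of 25 mouse members overlap those of another gene. Mrps25 shares 3533 exon bases on the opposite strand with Nr2c2, a nuclear receptor gene, which is 58.2% of its own. Mrpl43 shares 385 with Twnk, the mitochondrial DNA helicase, which had 9.13 CPM in osteoclasts and 8.76 CPM in macrophages. Mrpl19 shares 1962 with Gcfc2, which fell by 0.51 on the log2 scale while Mrpl19 rose by 0.34. Without a known strand setting these counts are uncertain.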
